A study of Homo sapiens with 24 samples.

Results

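The DNA replication machinery was followed here through 39 genes whose symbols were matched to the identifiers of 58051 genes counted in every library, and each of the 39 matched 1 protein-coding gene. They encode 9 kinds of function, namely the MCM2-7 helicase, origin recognition and licensing, helicase activation, the sliding clamp and its loader, the replicative polymerases and primase, Okazaki fragment processing, nucleotide supply, histone supply with chromatin assembly, and the turnover of a licensing factor. The mRNA was sequenced in 4 human cancer cell lines: SW620 (colorectal adenocarcinoma, COAD), LNCaP (prostate adenocarcinoma, PRAD), BxPC-3 (pancreatic adenocarcinoma, PAAD) and HCC-70 (triple negative breast cancer, TNBC). Each cell line had 3 control libraries and 3 libraries of cells exposed to Ocoxin, a supplement that combines extracts of plants with vitamins, minerals and amino acids, for 48 h. Ocoxin was diluted 50-fold in PRAD, 500-fold in PAAD and 700-fold in the cultures of COAD and TNBC, so the dose and the cell line cannot be told apart. The treatment medium held little serum, only adherent cells were collected, and each cancer is represented by 1 cell line, with replicates that the labels do not describe as separate cultures. The p-values therefore measure the spread between these libraries, which may be technical.

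Replication of the genome starts when the origin recognition complex, CDC6 and CDT1 load the MCM2-7 ring on DNA in G1, which is called licensing. In S phase, CDC45 and the GINS complex bind the ring to form the active helicase, polymerase alpha with primase lays down primers, and polymerases epsilon and delta extend them with the PCNA clamp, which RFC loads. Geminin (GMNN) and the ubiquitin ligase adaptor DTL act against CDT1 once S phase has begun, so that origins fire a single time. Most of these genes are transcribed around the G1/S transition under the control of E2F factors, and their mRNA levels are commonly read as a mark of proliferating cells. In bulk RNA, fewer cells in S phase and less of an mRNA per cell cannot be told apart.

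The sequence motif of E2F factors was looked for because these promoters are textbook E2F targets. The motif was spelled as TTTCCCGC, TTTCGCGC, TTTGCCGC and TTTGGCGC, read on both strands, in windows from 250 bases before to 50 bases after the RefSeq gene start (GRCh38.p14), which were given for 35 of the 39 genes. At least 1 of these words stood in 17 of the 35 windows (48.6%), against 1164 of 35116 windows of the same length (3.31%). The commonest word among the replication genes was TTTGGCGC, present in 8 windows and in 0.652% of all windows, followed by TTTCCCGC in 7 windows and in 1.63% of all. The word TTTGCCGC stood in none of the 35 windows and in 0.607% of all, and TTTCGCGC stood in 4 and in 0.515%. Windows with 2 or more matches were those of MCM2, MCM3 and MCM6, 3 of 35, against 0.145% of all windows. The 250 bases before the start are shown for 4 genes, chosen because they held the motif and were altered in 2 cell lines each. Of the other genes altered in 2 cell lines, CHAF1A had no match in its window, and MCM5 and POLD3 had no window. The bases are in lower case, 5′ to 3′ on the strand of the gene, with the motif in capitals. The genes shown are CDT1 (chr16:88803539-88803788, plus strand), DTL (chr1:212035498-212035747, plus strand), MCM6 (chr2:135876444-135876693, minus strand) and LIG1 (chr19:48170345-48170594, minus strand).
CDT1: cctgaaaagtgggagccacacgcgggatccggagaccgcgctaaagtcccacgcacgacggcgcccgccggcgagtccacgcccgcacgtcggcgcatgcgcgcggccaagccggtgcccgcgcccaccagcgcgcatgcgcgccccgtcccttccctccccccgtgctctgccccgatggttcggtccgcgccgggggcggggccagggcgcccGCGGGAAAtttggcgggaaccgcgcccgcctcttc
DTL: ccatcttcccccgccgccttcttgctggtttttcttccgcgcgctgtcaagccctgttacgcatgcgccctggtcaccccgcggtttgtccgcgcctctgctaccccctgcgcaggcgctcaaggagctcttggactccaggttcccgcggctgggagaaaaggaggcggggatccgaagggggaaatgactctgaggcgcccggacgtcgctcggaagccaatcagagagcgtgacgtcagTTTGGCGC
MCM6: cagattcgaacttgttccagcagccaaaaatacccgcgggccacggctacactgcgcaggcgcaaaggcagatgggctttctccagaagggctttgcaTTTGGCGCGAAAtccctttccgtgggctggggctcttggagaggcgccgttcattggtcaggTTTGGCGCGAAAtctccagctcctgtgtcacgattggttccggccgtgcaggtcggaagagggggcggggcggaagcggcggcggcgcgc
LIG1: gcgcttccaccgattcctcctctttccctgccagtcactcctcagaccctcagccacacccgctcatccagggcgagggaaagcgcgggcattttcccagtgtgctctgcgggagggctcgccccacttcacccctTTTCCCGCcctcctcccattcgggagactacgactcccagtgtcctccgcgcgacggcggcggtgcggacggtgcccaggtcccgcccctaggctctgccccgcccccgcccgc
The MCM6 promoter held 4 matches in 2 blocks, in each of which TTTGGCGC overlaps the reverse complement of TTTCGCGC. CDT1, DTL and LIG1 held 1 match each in the part shown. The gene models of the count tables begin further upstream than the RefSeq start for CDT1, DTL and LIG1. The same held for other genes. For GINS3 the model begins at chr16:58295080 and the window at chr16:58392221. The windows of MCM7, PCNA, POLD1 and RFC5, which held no match, lie inside the counted gene model, so the start of that model was not searched.

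Counts of single libraries summed to 25160757 to 39009959 in COAD, PAAD and TNBC, where a fragment mostly gave 2 counts, and to 9063968 to 9520969 in PRAD, where it gave 1. All 39 genes passed the filter on low counts in every cell line, and the smallest count of any of them in a library was 218 in PRAD and 350 in the other cell lines. The expected lineage genes were present, such as KLK3 in LNCaP (402 CPM, counts scaled to the library total, in controls), VIL1 in SW620 (521 CPM), CEACAM6 in BxPC-3 (1300 CPM) and KRT5 in HCC-70 (1580 CPM). KRT5 did not single out HCC-70, since it was at 3120 CPM in the BxPC-3 controls. Of the same list of basal markers, KRT17, TRIM29 and EGFR were also higher in BxPC-3, while KRT14, KRT6B and GABRP were higher in HCC-70. Some defining markers were nearly absent, namely CDX1 and KRT20 in SW620, with at most 4 counts in any library. PGR had 0 counts in HCC-70. ESR1 was at 6.78 CPM in the HCC-70 controls, above the controls of SW620 (0.0631 CPM) and BxPC-3 (0.79 CPM). The third receptor gene of this list, ERBB2, was at 246 CPM in the HCC-70 controls, against 123 CPM in those of SW620 and of BxPC-3. Of 8 markers of leukocytes, endothelium and fibroblasts, PTPRC and COL1A2 had at most 6 counts in any library, whereas CD3E had 56 to 95 counts in PAAD, and VWF and COL1A1 were at 77.8 and 50.9 CPM in the PRAD controls.

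All 39 genes were expressed in all 4 cell lines, and per kilobase of exon PCNA, the sliding clamp, had the highest control level of the 39 in each of them. Its level was 400 CPM per kilobase in COAD, 305 in PAAD, 202 in TNBC and 66.1 in PRAD, although the PRAD values were counted apart and are not comparable with the others. MCM7 and TK1 (thymidine kinase of the salvage pathway) were among the 6 highest in every cell line, with 154 and 147 CPM per kilobase in COAD. The lowest control levels belonged to GINS4 in COAD (5.42), PAAD (3.45) and TNBC (1.75 CPM per kilobase) and to GINS3 in PRAD (8.35). Reads shared with an overlapping gene were not counted for either gene, which concerned up to 21.2% of the exonic length of GINS4 and 18.8% of that of TYMS.

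In order to see whether Ocoxin altered the replication genes as a group, the control and treated libraries of each cell line were compared gene by gene, and genes with an adjusted p under 0.05 over all genes tested were called altered. In COAD and PRAD, genes that passed were lower with Ocoxin in every case, whereas PAAD had mostly higher genes and TNBC had both. The log2 fold change was below 0 for 38 of the 39 genes in COAD and for 39 of 39 in PRAD, with medians of -0.15 and -0.28. In PAAD and TNBC it was below 0 for 12 and 22 genes and above 0 for 26 and 17, with medians of 0.07 and -0.03. The median over all genes tested was between -0.005 and 0.009 in the 4 cell lines. Of the 39 genes 7 were altered in 2 cell lines, 18 in 1 and 14 in none, and no gene was altered in 3 or more. Of the 13341 genes tested in every cell line, 4.78% were altered in 2, 25.6% in 1, 69.1% in none and 0.442% in 3 or more. The changes were small, from -0.48 to 0.37 on the log2 scale.

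**Figure D1:**
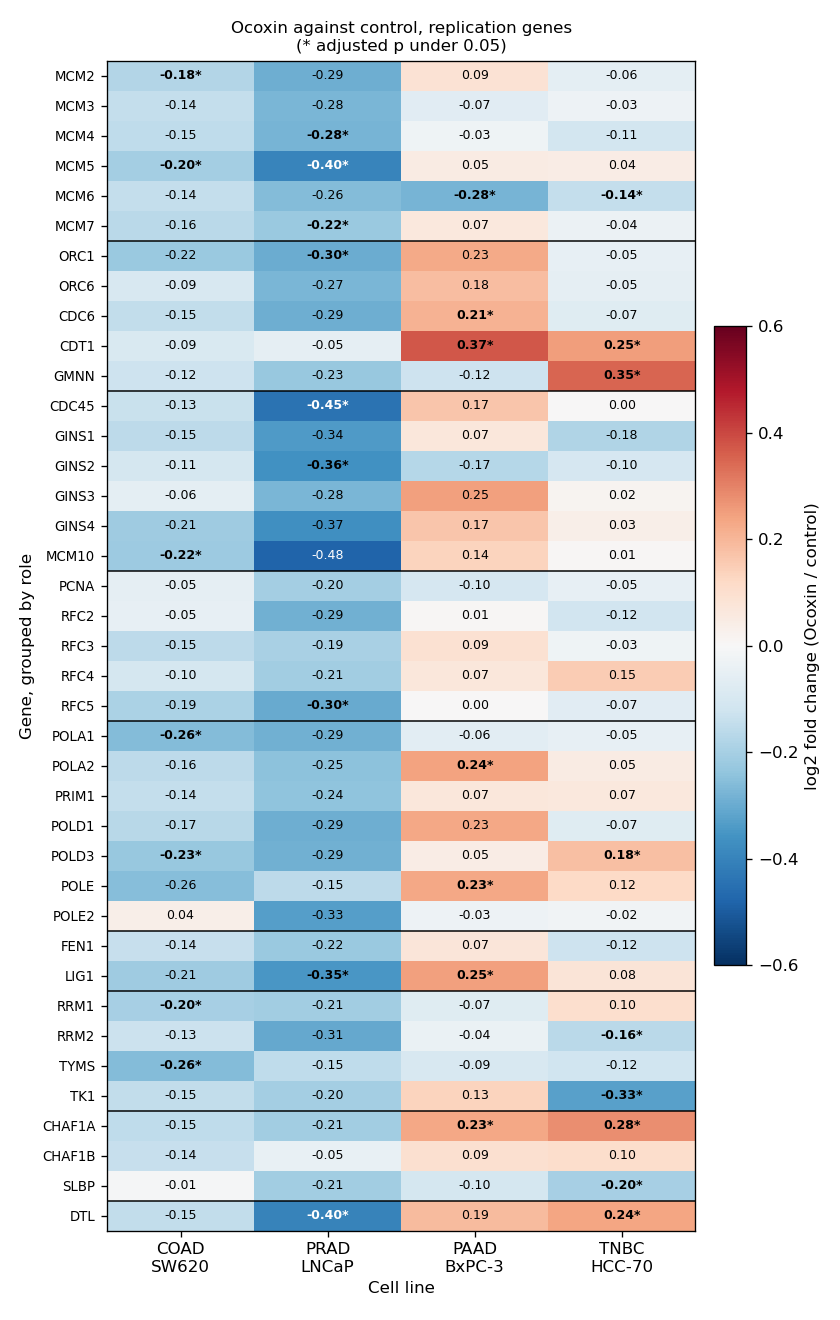
Heat map of the log2 fold change (Ocoxin over control) of the 39 replication genes (rows, grouped by role) in the 4 cell lines (columns), with 3 against 3 libraries in each. Asterisks mark an adjusted p under 0.05. The COAD and PRAD columns are below 0 for 38 and 39 of the 39 genes, while the PAAD and TNBC columns hold both signs.

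In COAD, 7 of the 39 genes were lower (POLA1, TYMS, POLD3, RRM1, MCM5, MCM10 and MCM2), against 1.09% of the 17659 genes tested, and 0 were higher, against 1.47%. The 3 treated libraries lay below all 3 controls for 27 of the 39 genes and above them for 0, while 10.4% and 10.2% of all genes were so separated. The summed level of the 39 genes was 7640, 7750 and 8000 CPM in the controls and 6860, 7140 and 7060 CPM with Ocoxin. The groups of this sum did not overlap. At an unadjusted p under 0.05, 29 genes passed in edgeR and all were lower, where 7.93% of all genes were lower and 8.02% higher. DESeq2 called 9 lower and 0 higher, against 1.61% and 2.03% of the 14235 genes that it gave an adjusted p. Leaving out 1 library turned the count of 7 into 1 (control replicate 1), 2 (control replicate 2) or 0 (Ocoxin replicate 2). Over all genes, 140, 138 and 121 were then called, against 451 with every library. The count was 17 once the dependence on gene length and GC content had been taken out, where 649 of all genes were called. The median stayed between -0.16 and -0.12 when any single library was left out.

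In PRAD, 9 genes were lower (MCM5, MCM7, CDC45, DTL, ORC1, MCM4, LIG1, GINS2 and RFC5), against 0.58% of 17070 genes tested, and 0 were higher, against 2.4%. For 33 of the 39 genes every treated library was below every control, a separation that 12.4% of all genes showed, and for 0 it was above, against 15.2%. The sums of the 39 genes were 4060, 4080 and 4360 CPM in the controls against 3260, 3420 and 3710 CPM with Ocoxin. Control replicate 3 and Ocoxin replicate 3 were the highest of their groups in this sum. With the replicate number as a block, 31 genes were lower and 0 were higher, against 2.69% and 5.81% of all genes. Here and for single genes below, the block is given only for PRAD, PAAD and TNBC. By the rule used, the numbers did not pair the COAD libraries. That rule held only among genes above a minimum level. At an unadjusted p under 0.05, 35 genes passed in edgeR, all of them lower, where 8.03% of all genes were lower and 12.7% higher. DESeq2 called 17 lower and 0 higher, against 0.955% and 2.65% of all genes. The count of 9 became 1 without control replicate 1 or Ocoxin replicate 1, and 0 without control replicate 2, control replicate 3 or Ocoxin replicate 2. Over all genes, 182, 100, 7, 37 and 3 were then called in this order, against 508 with every library. After the length and GC trend was removed the count was 34, where 2475 of all genes were called. The median stayed between -0.33 and -0.225 without any single library.

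In PAAD, 6 genes were higher (CDT1, LIG1, CHAF1A, POLA2, POLE and CDC6), against 4.72% of 17280 genes tested, and MCM6 alone was lower, against 3.62%. The treated libraries were above all controls for 14 genes and below them for 5, and the shares over all genes were 13.6% and 13.9%. The summed level was 4140, 4180 and 4220 CPM in controls and 4120, 4350 and 4460 CPM with Ocoxin, so the groups overlapped. With the replicate block, 14 genes were higher and 3 were lower, against 12.1% and 11% of all genes. Leaving out 1 library turned the count of 7 into 2 (control replicate 1), 3 (control replicate 2) or 1 (Ocoxin replicate 1 or 2). Over all genes, 961, 800, 685 and 641 were then called, against 1440 with every library. The count was 11 after the length and GC trend was removed, where 2396 of all genes were called. CDT1 passed with each of the 6 libraries left out in turn, with adjusted p-values up to 0.0394 over all alternatives.

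In TNBC, 5 genes were higher (GMNN, CHAF1A, CDT1, DTL and POLD3) and 4 were lower (SLBP, TK1, MCM6 and RRM2), against 9.65% and 11.3% of 17352 genes tested. Thus 9 of the 39 genes were altered, in a cell line where 3644 genes of all those tested were. The groups did not overlap for 10 lower and 7 higher genes, while 19.8% and 18.3% of all genes were lower or higher without overlap. Summed over the 39 genes, the controls had 4730, 4800 and 4830 CPM and the treated libraries 4780, 4750 and 4600 CPM, and the groups overlapped. With the replicate block, 9 genes were lower and 8 were higher, against 17.6% and 16.3% of all genes. Without any single library, 6 to 12 genes passed, where 2285 to 3864 of all genes did. GMNN, CHAF1A, CDT1, DTL, SLBP and TK1 passed in each of these omissions, with adjusted p-values up to 0.00139, 0.011, 0.0327, 0.0205, 0.0347 and 0.0489 over all alternatives.

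**Figure D2:**
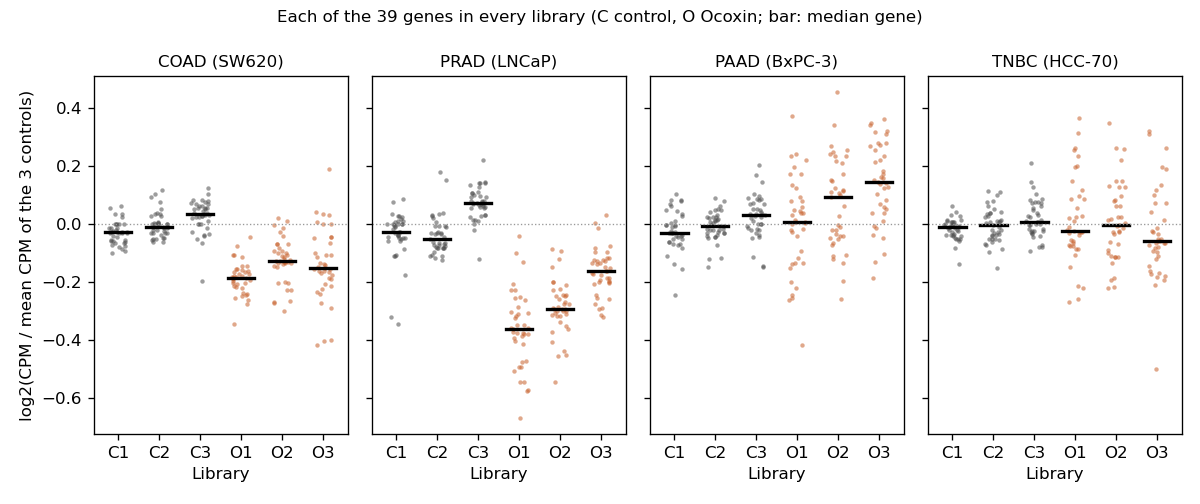
Each point is 1 of the 39 replication genes in 1 library (C, control, O, Ocoxin, by replicate number), as log2 of its CPM over the mean CPM of the 3 controls of that cell line. The bars are the medians over genes, which lie below every control in the COAD and PRAD treated libraries, reach 0.14 in PAAD and lie between -0.06 and -0.003 in the TNBC treated libraries.

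Among the 6 subunits of the MCM2-7 helicase, 2 were lower in COAD, 3 in PRAD, and MCM6 alone was lower in PAAD and in TNBC. In COAD and PRAD all 6 were below 0, and the groups did not overlap for any of them. MCM5 was at 242, 259 and 258 CPM in the COAD controls and at 220, 220 and 219 CPM with Ocoxin. It fell by 0.20 (log2 scale, SE 0.047, adjusted p = 0.0218). In PRAD its levels were 139, 146 and 144 CPM against 103, 108 and 115 CPM with Ocoxin, a log2 change of -0.40 (SE 0.049, adjusted p = 0.0165). MCM5 was the 1 gene called lower in both cell lines, while in PAAD and TNBC its log2 fold changes of 0.05 and 0.04 did not pass. MCM2 was lower in COAD, from 491 ± 17.6 to 434 ± 10.4 CPM (mean ± SD, n = 3, adjusted p = 0.0402), and had a log2 fold change of -0.29 in PRAD that passed only with the replicate block (adjusted p = 0.0814 without it and 0.00683 with it). MCM7, whose exons share 8.94% of their length with AP4M1, was at 198, 197 and 200 CPM in the PRAD controls and at 165, 171 and 174 CPM with Ocoxin (log2 -0.22, SE 0.0346, adjusted p = 0.0257). MCM4 was at 216, 218 and 234 CPM in these controls and at 178, 179 and 195 CPM with Ocoxin (log2 -0.28, SE 0.050, adjusted p = 0.0333).

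The MCM6 subunit stood apart from its partners in PAAD. It was at 135, 138 and 147 CPM in the controls and at 105, 117 and 123 CPM with Ocoxin, so the groups did not overlap. Its log2 fold change was -0.28 (SE 0.0648, adjusted p = 0.0142), while the other 5 subunits lay between -0.07 and 0.09 and did not pass. In TNBC it fell from 196 ± 6.3 to 177 ± 4.03 CPM (n = 3, log2 -0.14, adjusted p = 0.0206). In COAD and PRAD, MCM6 had log2 fold changes of -0.14 and -0.26 that did not pass (adjusted p = 0.128 and 0.053), although in PRAD it passed with the replicate block (adjusted p = 0.0115). The groups of MCM6 did not overlap in any of the 4 cell lines. No difference among the 4 in its response was called (quasi-likelihood F-test, adjusted p = 0.371).

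Among the 5 licensing genes, CDT1, which brings the MCM ring to the origin, was higher in PAAD and TNBC. In PAAD it was at 53.1, 51 and 46.4 CPM in the controls and at 65, 68.7 and 60.9 CPM with Ocoxin, a log2 change of 0.37 (SE 0.0703, adjusted p = 0.00406). In TNBC its controls were at 106, 114 and 105 CPM and its treated libraries at 134, 129 and 123 CPM (log2 0.25, SE 0.0474, adjusted p = 0.00286). The groups overlapped in COAD and PRAD, where the log2 fold changes of CDT1 were -0.09 and -0.05. GMNN, the inhibitor of CDT1, had the smallest adjusted p of the 39 genes in any cell line, in TNBC. It was at 128, 132 and 125 CPM in the controls and at 166, 164 and 160 CPM with Ocoxin (log2 0.35, SE 0.0391, adjusted p = 8.98e-05). In COAD, PAAD and PRAD its log2 fold changes were -0.12, -0.12 and -0.23 and did not pass, although that in PRAD passed with the replicate block (adjusted p = 0.0455). CDC6, which loads MCM2-7 together with CDT1, was higher in PAAD, at 102 ± 5.14 CPM in controls and 118 ± 5.71 CPM with Ocoxin (n = 3, adjusted p = 0.0451). ORC1, the ATPase of the origin recognition complex, was at 92, 82.5 and 87.3 CPM in the PRAD controls and at 70.5, 71.6 and 71.2 CPM with Ocoxin (log2 -0.30, SE 0.052, adjusted p = 0.0315). In PAAD its log2 fold change of 0.23 did not pass (adjusted p = 0.0778), and it passed with the replicate block (adjusted p = 0.00114). ORC6 was not altered in any cell line without the block, and with it was higher in PAAD (log2 0.18, adjusted p = 0.0112) and lower in PRAD (log2 -0.27, adjusted p = 0.03).

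The 6 genes of helicase activation gave the lowest median of any role with more than 1 gene in PRAD, -0.37, with no overlap between groups for any of the 6. CDC45, a subunit of the active helicase, was at 80.5, 79.3 and 88.2 CPM in the PRAD controls and at 55.5, 60.5 and 66.2 CPM with Ocoxin (log2 -0.45, SE 0.075, adjusted p = 0.0296). GINS2 fell in PRAD from 55.4 ± 3.88 to 43.1 ± 2.19 CPM (n = 3, adjusted p = 0.0422). The lowest log2 fold change of the 39 genes was that of MCM10, an origin firing factor, in PRAD. It was at 110, 101 and 120 CPM in the controls and at 69.3, 75.5 and 92 CPM with Ocoxin, and did not pass without the block (log2 -0.48, SE 0.107, adjusted p = 0.0596), whereas it passed with it (adjusted p = 0.00971). In COAD, MCM10 was lower, with 88.8, 92.4 and 90.5 CPM in the controls and 79.5, 73.7 and 80.2 CPM with Ocoxin (log2 -0.22, SE 0.0539, adjusted p = 0.03). None of the 6 was altered in PAAD or TNBC without the block, where their medians were 0.15 and 0.01. With the block, GINS3 (log2 0.25, adjusted p = 0.00111) and CDC45 (log2 0.17, adjusted p = 0.0131) were higher in PAAD, and so was MCM10 (log2 0.14, adjusted p = 0.0499), while GINS2 was lower (log2 -0.17, adjusted p = 0.0345). GINS1 was then lower in TNBC (log2 -0.18, adjusted p = 0.00105).

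Of the clamp and the clamp loader, only RFC5, a subunit of the loader, passed in any cell line without the block. It fell in PRAD from 81.5 ± 4.7 to 66.1 ± 2.73 CPM (n = 3, log2 -0.30, SE 0.0593, adjusted p = 0.0428). The log2 fold change of PCNA was -0.05 in COAD, -0.20 in PRAD, -0.10 in PAAD and -0.05 in TNBC, none of which passed without the block. Its change in PRAD did pass with the block (adjusted p = 0.0278), as did that in PAAD (adjusted p = 0.0356). RFC2 and RFC3 were then lower in PRAD (adjusted p = 0.0269 and 0.0427), and in TNBC RFC2 was lower and RFC4 higher (adjusted p = 0.0119 and 0.001).

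Among the 7 genes of polymerases and primase, 2 were lower in COAD, 2 were higher in PAAD, 1 was higher in TNBC and none passed in PRAD. With the block, 3 were lower in PRAD, POLA2, POLD1 and POLD3 (adjusted p = 0.0283, 0.044 and 0.0144). POLA1, the catalytic subunit of polymerase alpha, was at 204, 200 and 192 CPM in the COAD controls and at 168, 165 and 163 CPM with Ocoxin. With a log2 change of -0.26 (SE 0.0476, adjusted p = 0.00391) it had the smallest adjusted p of the 39 genes in COAD. POLA2, the second subunit of the same enzyme, was higher in PAAD, with 70, 66.9 and 67.9 CPM in the controls and 78.3, 75.9 and 87.6 CPM with Ocoxin (log2 0.24, SE 0.0655, adjusted p = 0.0335). POLE, the catalytic subunit of polymerase epsilon, was at 106, 122 and 126 CPM in the PAAD controls and at 133, 142 and 142 CPM with Ocoxin (log2 0.23, SE 0.0663, adjusted p = 0.0411). In COAD, POLE had a log2 fold change of -0.26, close to that of POLA1, that did not pass (adjusted p = 0.265). POLE2, the partner subunit of POLE, had the highest value of the 39 genes in COAD (log2 0.04, adjusted p = 0.874). In PRAD the 7 genes lay between -0.33 and -0.155, and the groups did not overlap for 5 of them.

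LIG1, POLD3 and DTL were altered in opposite directions in 2 cell lines. Not all of these calls held when each of the 6 libraries of a cell line was left out in turn. The call of LIG1 held in 0 of 6 such runs in PRAD and in 3 in PAAD. That of POLD3 held in 4 in COAD and 2 in TNBC, and that of DTL in 1 in PRAD and 6 in TNBC. LIG1, the ligase that seals Okazaki fragments, was at 72.2, 74.2 and 77.5 CPM in the PRAD controls and at 53, 60.9 and 61.7 CPM with Ocoxin (log2 -0.35, SE 0.0686, adjusted p = 0.0421). In PAAD its controls were at 96.1, 106 and 96.5 CPM and its treated libraries at 116, 119 and 119 CPM (log2 0.25, SE 0.0591, adjusted p = 0.0164). In COAD it was at 106, 111 and 104 CPM against 93, 102 and 81.1 CPM, which did not pass (adjusted p = 0.11), and in TNBC at 129, 131 and 131 CPM against 144, 142 and 127 CPM, where the groups overlapped. FEN1, which trims the fragments that LIG1 joins, was not altered in any cell line without the block. With it, among PRAD, PAAD and TNBC, FEN1 was lower in PRAD (log2 -0.22, adjusted p = 0.0161) and TNBC (log2 -0.13, adjusted p = 0.0078).

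POLD3, a subunit of polymerase delta, was at 118, 126 and 124 CPM in the COAD controls and at 106, 105 and 104 CPM with Ocoxin (log2 -0.23, SE 0.0498, adjusted p = 0.0146). In TNBC it was at 64.2, 63.4 and 69.5 CPM in the controls and at 78.4, 72.7 and 72.1 CPM with Ocoxin (log2 0.18, SE 0.0528, adjusted p = 0.0295). The PRAD levels were 82.5, 79.4 and 94.4 CPM against 66, 67.1 and 77.2 CPM (adjusted p = 0.117, with the block 0.0144), without overlap, and the PAAD levels were 51.2, 52.1 and 53.5 CPM against 52.6, 51 and 58.3 CPM, with overlap.

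DTL, the adaptor that targets CDT1 for destruction in S phase, was at 114, 107 and 117 CPM in the PRAD controls and at 79.6, 81.7 and 93.8 CPM with Ocoxin (log2 -0.40, SE 0.0694, adjusted p = 0.0302). In TNBC its controls were at 93.6, 86.7 and 97.6 CPM and its treated libraries at 109, 108 and 111 CPM (log2 0.24, SE 0.0477, adjusted p = 0.00416). The groups did not overlap in the other cell lines either, although neither difference passed. In COAD they were 130, 131 and 136 CPM against 117, 122 and 119 CPM (adjusted p = 0.113), and in PAAD 46.8, 48.5 and 52.1 CPM against 52.4, 54.4 and 61.1 CPM (adjusted p = 0.128, with the block 0.00464).

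**Figure D3:**
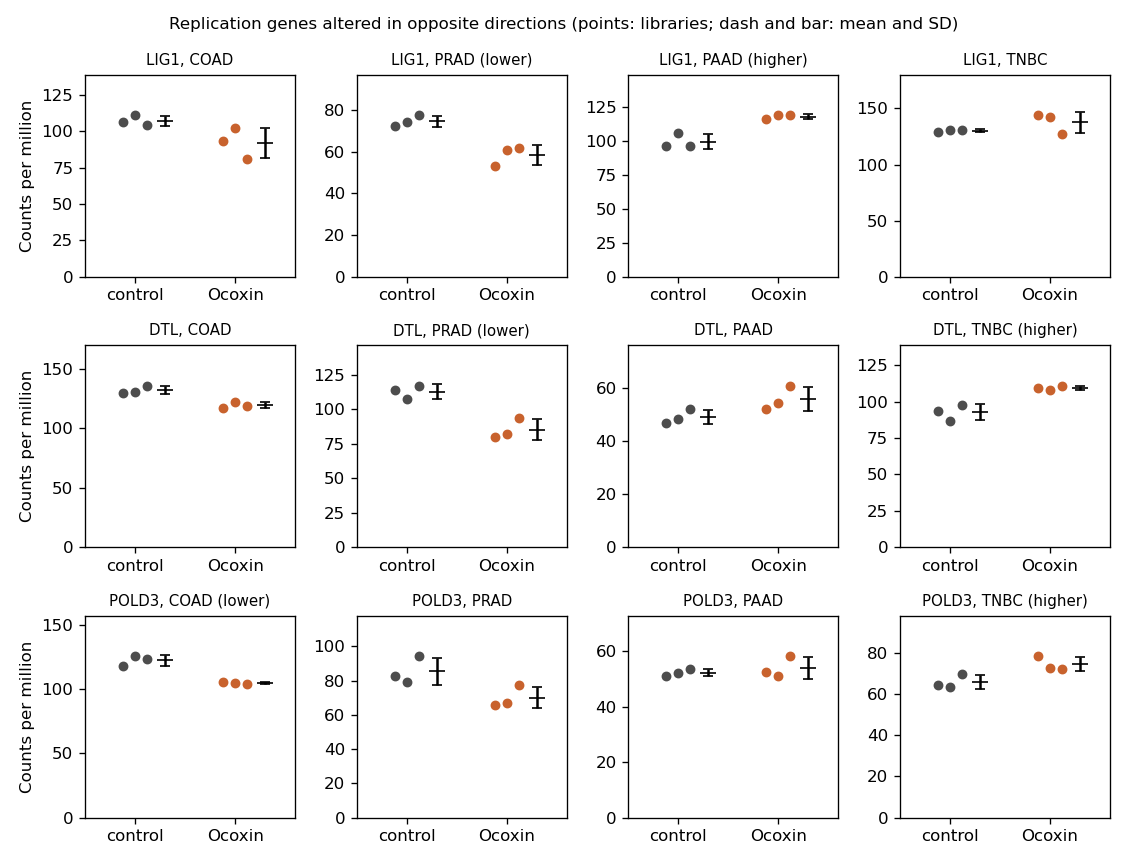
LIG1, DTL and POLD3 (rows) in the 4 cell lines (columns), in CPM on axes that start at 0, with 1 point per library and the mean and SD of 3 libraries beside the points. Panels marked lower or higher passed the adjusted p of 0.05, and in each of those the treated and control points do not overlap.

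Of the 4 genes of nucleotide supply, TYMS and RRM1 were lower in COAD, and TK1 and RRM2 were lower in TNBC, while none passed in PRAD or PAAD. With the block, RRM1, RRM2 and TK1 were lower in PRAD (adjusted p = 0.0303, 0.008 and 0.0298) and TK1 was higher in PAAD (adjusted p = 0.0126). TYMS, thymidylate synthase, was at 115, 111 and 118 CPM in the COAD controls and at 90.7, 95.8 and 101 CPM with Ocoxin (log2 -0.26, SE 0.054, adjusted p = 0.0107). RRM1, the large subunit of ribonucleotide reductase, was at 401, 392 and 410 CPM in the COAD controls and at 338, 349 and 361 CPM with Ocoxin (log2 -0.20, SE 0.0461, adjusted p = 0.0207). Its small subunit RRM2 fell in TNBC, from 305 ± 16.8 to 272 ± 12.3 CPM (n = 3, adjusted p = 0.0245). TK1 was at 166, 185 and 162 CPM in the TNBC controls and at 142, 147 and 121 CPM with Ocoxin, the lowest log2 change of the 39 genes in that cell line (-0.33, SE 0.0754, adjusted p = 0.0156).

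CHAF1A, the large subunit of the chromatin assembly factor that follows PCNA, was at 40.5, 40.8 and 40.5 CPM in the TNBC controls and at 48.6, 48.6 and 50.7 CPM with Ocoxin (log2 0.28, SE 0.0484, adjusted p = 0.00169). In PAAD its controls were at 72, 74 and 74.5 CPM and its treated libraries at 86.5, 87.2 and 85.5 CPM (log2 0.23, SE 0.0563, adjusted p = 0.0175). CHAF1B, its partner, was not altered in any cell line, and its values were -0.14 in COAD, -0.05 in PRAD, 0.09 in PAAD and 0.10 in TNBC. SLBP, which binds the stem loop of histone mRNA, was lower in TNBC, at 84.3, 83.3 and 86.3 CPM in the controls and at 72.7, 74.3 and 74.5 CPM with Ocoxin (log2 -0.20, SE 0.0421, adjusted p = 0.00576). In COAD it was the gene nearest to 0 among the 38 below it (log2 -0.01). SLBP and CHAF1A were lower in PRAD with the replicate block (adjusted p = 0.031 and 0.0228), and neither passed there without it.

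In order to test whether the cell lines responded differently, the fold changes were compared within single fits. Any difference among the 4 cell lines was called for 24 of the 39 genes, against 10.9% of 24631 genes tested. DTL (adjusted p = 9.4e-06), MCM5 (1.3e-05), CHAF1A (1.62e-05), GMNN (1.81e-05), CDC45 (5.89e-05) and LIG1 (7.33e-05) had the smallest adjusted p-values. The grouping of COAD with PRAD against PAAD with TNBC was taken up with earlier results of these data known, so its test describes these libraries. The response was lower in COAD and PRAD for 24 genes, against 3.34% of genes tested, and higher for 0, against 2.87%, and the difference was below 0 for 37 of 39, the exceptions being MCM6 and SLBP. The median difference was -0.26, compared with 0.01 over all genes. The 6 genes with the smallest adjusted p were CHAF1A (log2 difference -0.45, SE 0.0563, adjusted p = 3.78e-06), DTL (-0.50, SE 0.0635, 4.24e-06), MCM5 (-0.35, SE 0.0465, 7.29e-06), LIG1 (-0.45, SE 0.0658, 3.38e-05), CDC45 (-0.38, SE 0.0612, 0.000115) and POLD3 (-0.38, SE 0.0665, 0.000374). Without PRAD, the response was lower in COAD than in PAAD and TNBC for 11 genes, against 3.23% of 21068 genes tested, and higher for 0, against 3.72%.

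**Figure D4:**
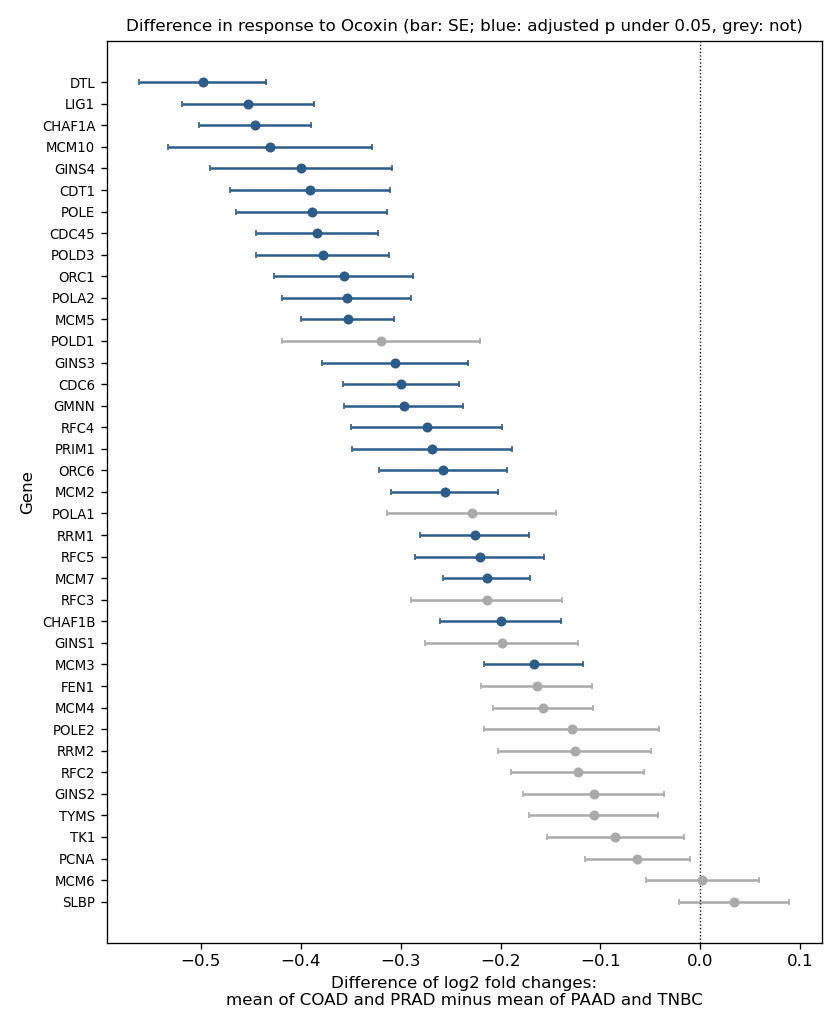
Difference between the mean log2 fold change of COAD and PRAD and that of PAAD and TNBC for each of the 39 genes, with its SE, ordered by size. The 24 genes in blue passed an adjusted p of 0.05, all of them below 0, and the 2 genes above 0, MCM6 and SLBP, lie next to it.

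COAD and TNBC received the same dilution of Ocoxin and were counted in the same run, so that neither differs in this comparison. The response was lower in COAD than in TNBC for 8 genes, against 4.18% of 20163 genes tested, and higher for 0, against 6.28%. These 8 were CHAF1A (log2 difference -0.42, SE 0.071, adjusted p = 0.000559), GMNN (-0.46, SE 0.081, 0.000788), DTL (-0.37, SE 0.0677, 0.00106), POLD3 (-0.39, SE 0.0719, 0.00113), RRM1 (-0.29, SE 0.059, 0.00311) and CDT1 (-0.33, SE 0.0815, 0.0112), followed by MCM5 and CHAF1B. The difference was below 0 for 30 of the 39 genes, with a median of -0.11. The count of 8 was 13 when at least 10 counts were asked of every library, 17 with the replicate block in both cell lines (15 lower and 2 higher) and 23 with the block and the length and GC trend removed, while 2352, 4111 and 4123 of all genes were then called.

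Although 38 of the 39 genes were below 0 in both COAD and PRAD, the sizes of their changes were hardly related (Pearson's r = 0.11, Spearman's rho = 0.18 across 39 genes, which are not independent). Between PAAD and TNBC, r was 0.32 and rho was 0.36, and 14 genes had opposite signs. The groups were apart, with Ocoxin lower, in both COAD and PRAD for 24 genes, against 3.48% of the 14845 genes tested in both. Genes with and without the E2F motif in their promoter window had medians of -0.15 and -0.14 in COAD, -0.28 and -0.23 in PRAD, 0.09 and 0.07 in PAAD and -0.03 and -0.05 in TNBC. In PAAD, 6 of the 17 genes with the motif and 1 of the 18 without it were altered, compared with 4 of 17 and 4 of 18 in TNBC, 3 and 2 in COAD, and 3 and 4 in PRAD. The 6 in PAAD were CDC6, CDT1, POLA2, POLE and LIG1, which were higher, and MCM6, which was lower. MCM4, MCM5, POLD3 and GINS4 had no window and are in none of these counts. The windows of some genes without the motif, among them MCM7, PCNA, POLD1 and RFC5, do not cover the start of the counted gene model.

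The rest of the replication pathway was read from 6 lists of genes outside the 39. The counts in all 6 lists stand beside the shares over all genes tested. These were 1.09% lower and 1.47% higher in COAD, and 0.58% and 2.4% in PRAD. In PAAD they were 3.62% and 4.72%, and in TNBC 11.3% and 9.65%. With the block, 2.69% of all genes were lower in PRAD. Of the other origin and licensing genes, none of 8 was altered in COAD or PRAD, with 1 lower in PRAD once the block was added, whereas TONSL and MCM8 were higher in PAAD (log2 0.33 and 0.29, adjusted p = 0.0138 and 0.0172) and in TNBC (log2 0.28 and 0.23, adjusted p = 0.00414 and 0.00807). Among 13 replication kinases and firing factors, 13 were below 0 in COAD and 13 in PRAD. Of these, MTBP and WDHD1 were lower in COAD (log2 -0.33 and -0.21, adjusted p = 0.0258 and 0.0364) and CLSPN, a checkpoint mediator at the fork, was lower in PRAD (log2 -0.51, adjusted p = 0.0257). In PAAD 3 of the 13 were higher, TIMELESS, DBF4B and RECQL4 (log2 0.32, 0.36 and 0.29). In TNBC 4 were higher, TIMELESS, MTBP, DBF4B and TOPBP1 (log2 0.25, 0.26, 0.26 and 0.13).

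Of the 12 other polymerase, clamp and RPA subunits, ATAD5, which unloads PCNA, was lower in COAD (log2 -0.32, adjusted p = 0.011), CHTF18, a subunit of another clamp loader, was higher in PAAD (log2 0.40, adjusted p = 0.00124) and POLE4 was lower in TNBC (log2 -0.19, adjusted p = 0.0265). None of the 12 passed in PRAD, where 3 were lower with the block. Among 6 other fork and lagging strand enzymes, TOP2A and DNA2 were lower in COAD (log2 -0.28 and -0.22) and DNA2 in PRAD (log2 -0.43, adjusted p = 0.0491). UNG was lower in PAAD (log2 -0.20), and EXO1 and TOP2A were higher in TNBC (log2 0.17 and 0.11). A list of 8 other genes was kept under nucleotide supply, although some of them, such as TYMP and DCTPP1, act in breakdown. Of these, 7 were tested in COAD. None passed in COAD or PRAD, and 1 was lower with the block in PRAD. TYMP and DUT were lower in PAAD (log2 -0.33 and -0.21), and DCTPP1, TYMP and DTYMK were lower in TNBC (log2 -0.29, -0.23 and -0.18). Of 6 other chromatin assembly genes, DNMT1, the maintenance methyltransferase, was lower in COAD (log2 -0.27, adjusted p = 0.0137) and higher in PAAD (log2 0.27, adjusted p = 0.014) and TNBC (log2 0.20, adjusted p = 0.0115). The histone chaperone ASF1B was lower in PRAD (log2 -0.37) and in TNBC (log2 -0.15).

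Upstream of these genes, 19 regulators of the G1/S transition were examined. In COAD 5 were lower (CCND1, RBL1, E2F7, SKP2 and E2F8) and CDKN1A was higher, against 1.09% and 1.47% of all genes. In PRAD 2 were lower, against 0.58% of all genes, E2F2 (log2 -0.47, adjusted p = 0.0223) and CDC25A (log2 -0.35, adjusted p = 0.0296). In PAAD 4 were higher and none was lower, against 4.72% and 3.62% of all genes. The 4 were E2F7, MYC, E2F1 and CDKN1A (log2 0.47, 0.32, 0.26 and 0.28). TNBC had 4 higher genes, MYC, E2F8, CCND1 and E2F2, against 9.65% of all genes, and a single lower one, CDKN1A, against 11.3%. CDKN1A encodes p21, which inhibits cyclin-dependent kinases and binds PCNA. It was at 49.5, 49 and 45.8 CPM in the TNBC controls and at 22.8, 20.4 and 21.3 CPM with Ocoxin, a log2 change of -1.16 (SE 0.0613, adjusted p = 2.99e-07). In COAD it was at 6.87, 6.54 and 6.65 CPM in controls and at 9.37, 10.7 and 8.95 CPM with Ocoxin (log2 0.53, SE 0.115, adjusted p = 0.0137). In PAAD it was at 155, 164 and 139 CPM against 186, 193 and 177 CPM (log2 0.28, adjusted p = 0.0146), and in PRAD its log2 fold change of 0.09 did not pass. The response of CDKN1A differed between COAD and TNBC by 1.71 on the log2 scale (SE 0.118, adjusted p = 3.4e-09).

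A list of 20 genes of mitosis was read beside the replication genes because it marks the later part of the cycle. In COAD 9 of the 20 were lower, against 1.09% of all genes, and 20 were below 0, with a median of -0.22. PLK1 (log2 -0.31), KIF20A (-0.31), ANLN (-0.27) and AURKB (-0.30) had the smallest adjusted p-values. In PRAD 20 were below 0, with a median of -0.27, and 19 were lower without overlap, against 12.4% of all genes. None passed without the replicate block, and 14 were lower with it, against 2.69% of all genes. In PAAD KIF20A alone was lower (log2 -0.38, adjusted p = 0.0045), against 3.62% of all genes, and the median was -0.05. With the block 7 were lower, against 11% of all genes. In TNBC MKI67 was higher (log2 0.24) and UBE2C, CDK1 and PTTG1 were lower (log2 -0.16, -0.12 and -0.15), with a median of -0.01. Of all genes in TNBC, 9.65% were higher and 11.3% lower. All 20 mitosis genes were thus below 0 in both COAD and PRAD, beside 38 and 39 of the 39 replication genes, and the part of a changed share of cycling cells in either was not tested.

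**Figure D5:**
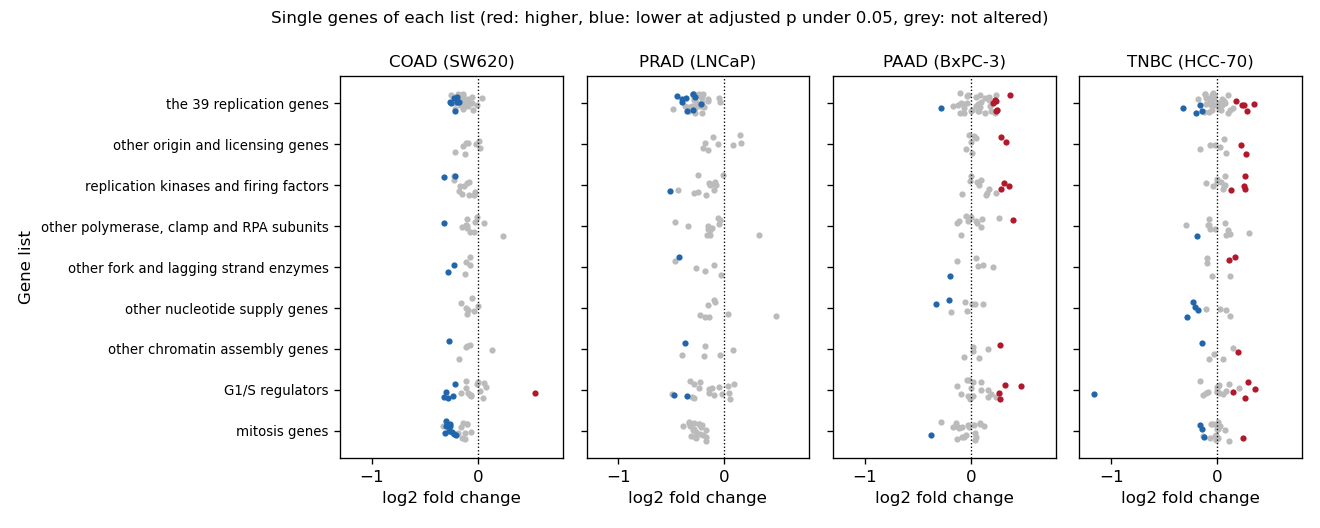
Log2 fold change of single genes (points) for the 39 replication genes and 8 lists of related genes (rows) in the 4 cell lines (panels), with red and blue for genes that were higher or lower at an adjusted p under 0.05. The COAD and PRAD mitosis genes all lie below 0, and the lone point beyond -1 in TNBC is CDKN1A at -1.16.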

How the data were processed

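The mRNA of 24 libraries was sequenced, 3 control and 3 Ocoxin libraries in each of 4 cell lines, with groups and replicate numbers taken from the titles. Before deposit the authors used fastp for trimming, STAR for alignment to hg38, picard to take out PCR duplicates and featureCounts (version 2.0.3 in the table headers) to count reads on exons. The deposited values are whole counts per gene, without normalization or use of strand, and reads on exons of overlapping genes were left out. The 6 PRAD libraries were counted in a run of their own without the paired-end option, so levels are not comparable with those of the other cell lines. The deposited tables also give the exonic length of each gene, which was used for levels per kilobase and for the length trend.

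The tests were run in R 4.3.3 with edgeR 4.0.16, separately for the 6 libraries of each cell line, after a filter on low counts (filterByExpr) and TMM scaling. A robust quasi-likelihood F-test was used, two-sided, with p-values adjusted after Benjamini-Hochberg across the whole table, and a gene was called altered at an adjusted p under 0.05. Levels (CPM) are counts relative to the TMM-scaled library total. Differences between cell lines were contrasts of fold changes in 1 fit of the libraries concerned. The alternatives were DESeq2 1.42.0, its size factors, other filters, 1 fit of 24 libraries, the replicate number as a block, removal of a length and GC trend (spline with 5 degrees of freedom) with and without the block, halved counts, a correction of PRAD counts for fragments lost as duplicates, an adjusted p under 0.01 and each library left out. One alternative, the block in PAAD, PRAD and TNBC only, was chosen after seeing the data. The scripts were tested on simulated counts.

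Over genes with a mean CPM of at least 10, same-numbered control and Ocoxin libraries deviated together in PAAD (correlations 0.31 to 0.62), PRAD (0.18 to 0.6) and TNBC (0.29 to 0.63), where the replicate number was taken to pair the libraries. The rule asked for a correlation over 0.1 in each same-numbered pair. In COAD the correlations were 0.4, 0.08 and 0.5, so 1 pair missed the rule and the number was not taken to pair the libraries. The highest correlation between differently numbered libraries was 0.35 in TNBC, above its lowest pair, and 0.41 in COAD. In both of these cell lines, 2 of the 3 control libraries matched their own number best. Over all genes tested, the lowest correlations were 0.02 in PAAD, 0.09 in PRAD, 0.06 in TNBC and -0.01 in COAD, so no cell line met the rule there. The labels do not say what a replicate number stands for. No libraries of a group agreed within counting noise.

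The 39 genes, the other gene lists, the cell line grouping and the tests were chosen with earlier results of these data known. By rule, every altered gene of the 39 was named in each cell line with the genes of lowest and highest fold change, and single-library values were given for the 6 altered genes with the smallest adjusted p and for genes altered in opposite directions. At most 4 genes of each other list were named per cell line, those with the smallest adjusted p. The exception is the 5th and later altered G1/S regulators, which were named because their counts are small. Promoter sequences are from RefSeq (GRCh38.p14). Protein sequences were not analysed here, and 1 altered gene of the other lists is not reported here.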

Additional observations from a re-analysis of the deposited data

Results flagged for a closer look

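The responses of the replication genes to Ocoxin differed between cell lines by tests of the difference itself. Any difference among the 4 cell lines passed the adjusted p of 0.05 for 24 of the 39 genes, against 10.9% of all genes tested, with the smallest adjusted p-values for DTL (9.4e-06), MCM5 (1.3e-05), CHAF1A (1.62e-05), GMNN (1.81e-05), CDC45 (5.89e-05) and LIG1 (7.33e-05) in the quasi-likelihood F-test of edgeR. The mean log2 fold change of COAD and PRAD was below that of PAAD and TNBC at an adjusted p under 0.05 for 24 genes, against 3.34% of all genes tested, led by CHAF1A (-0.446), DTL (-0.498), MCM5 (-0.353), LIG1 (-0.453), CDC45 (-0.384) and POLD3 (-0.378). At the same dilution of Ocoxin, the log2 fold change in COAD was below that in TNBC at an adjusted p under 0.05 for 8 genes, against 4.18% of all genes tested. These were led by CHAF1A (-0.418), GMNN (-0.461), DTL (-0.373), POLD3 (-0.394), RRM1 (-0.286) and CDT1 (-0.33). Outside the 39 genes, CDKN1A differed the other way, by 0.744 between both pairs of cell lines and by 1.71 between COAD and TNBC on the log2 scale. It was lower with Ocoxin in TNBC only. In PAAD, of the same pair, CDKN1A was higher, and in PRAD its change did not pass. The grouping of the cell lines was chosen with earlier results of these data known, and the dose differed between 3 levels across the cell lines, which cannot be told apart from the cell line outside the comparison of COAD with TNBC. No group had enough libraries for a test of single outlying libraries.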

How the results depend on the processing

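No altered gene of the 39 and no called difference reversed its direction under any alternative run. Counts of altered genes among the 39 depended on the spread model. With the replicate number as a block they were 28 in COAD (where the numbers were not taken to pair the libraries), 17 in PAAD, 31 in PRAD and 17 in TNBC, against 7, 7, 9 and 9 without it. Calls over all genes rose as well, to 1925, 3998, 1451 and 5878, from 451, 1440, 508 and 3644. Under the block in every cell line, responses differed among the 4 cell lines for 37 genes and between COAD and TNBC for 17 (15 lower and 2 higher in COAD). Of all genes, 5750 and 4111 were then called. With the block in PAAD, PRAD and TNBC only, the numbers were 30 for both pairs of cell lines, 10 for COAD against TNBC and 31 for any difference, none of which moved by over 1.5 times. Removal of the length and GC trend gave 17 in COAD, 11 in PAAD and 34 in PRAD, with 649, 2396 and 2475 of all genes called. With the block it gave 34, 18, 38 and, in TNBC, 17, with 2567, 3384, 5446 and 5720 of all genes called. For the differences between both pairs, COAD and TNBC, and any cell lines, removal with the block gave 37, 23 and 39. There 3872, 4123 and 7077 of all genes were called. Without a filter on low counts 12 passed in COAD and 27 in PRAD, and 1 fit of all 24 libraries gave 2 and 30. All genes that passed were 734 and 1092 without the filter, and 288 and 998 in that fit. In PRAD, DESeq2 gave 17 and corrected counts gave 16, with 616 and 550 of all genes called. An adjusted p under 0.01 left 1 gene in COAD, 1 in PAAD, 0 in PRAD, 5 in TNBC and 5 for COAD against TNBC. Of all genes it left 143, 569, 5, 1771 and 901. With at least 10 counts in every library 13 genes differed between COAD and TNBC, and without PRAD 11 differed between COAD and the other pair. Without 1 library, 0 to 7 genes passed in COAD, 1 to 8 in PAAD, 0 to 12 in PRAD and 6 to 12 in TNBC, depending on which library was left out. Over all genes, 121 to 782, 641 to 1715, 3 to 398 and 2285 to 3864 passed. Differences were then found for 19 to 30, 6 to 9 and 19 to 28 genes of the 39. The medians then ranged from -0.161 to -0.122 in COAD, 0.039 to 0.099 in PAAD, -0.331 to -0.225 in PRAD and -0.046 to -0.015 in TNBC. The PRAD libraries are the shallowest, and 3 libraries per group limit all calls.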
